A study of Homo sapiens with 40 samples.

Results

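The 9 genes described here are direct transcriptional targets of the tumour suppressor p53 that feed back on p53 or hold the cell cycle: MDM2, PPM1D, CCNG1, TP53INP1, CDKN1A, BTG2, SESN1, ZMAT3 and FDXR. They were taken by name, as the rows of the deposited count table whose Ensembl identifiers map to these symbols. The rule uses names and no measured value, but the set was put together with earlier results of these data known. All 9 were found among the 19962 genes of the table, and all 9 were among the 11428 genes with enough counts to be tested. p53 is a transcription factor that is kept low in unstressed cells because MDM2, one of its own targets, marks it for degradation. DNA breaks and other stresses stabilise p53, which then raises its targets, and these both stop division and restrain p53 again. RKO, a human colorectal carcinoma line, is known to carry functional p53, so the loop can operate in it.

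The 40 libraries were made from poly(A) RNA of 3 RKO lines, each with doxycycline-inducible Cas9, GFP and a BFP-marked vector that expresses a pair of guide RNAs. The guides were directed against the non-coding locus AAVS1 (sgAAVS1), against IGF2BP2 (sgIGF2BP2) or against IGF2BP3 (sgIGF2BP3), the last 2 genes encoding RNA-binding proteins. In each line 1 group received DMSO and 1 received doxycycline (Dox) at 250 ng/mL for 72 hours. Only the sgIGF2BP2 and sgIGF2BP3 lines had 2 further groups, a non-targeting siRNA (siControl) and a siRNA pool against the line's own guide target (siIGF2BP2 or siIGF2BP3), at 75 nM for 48 hours. The siRNA groups received neither Dox nor, per the labels, DMSO. All 10 groups, controls included, were given 4-thiouridine (s4U) at 250 µM for 2 hours, the label of SLAMseq, and each group has 4 libraries. Cells of each line were sorted for the marker of the guide vector, and no label calls a line a single clone. One well was used per condition in 4 repeats. Because no label states that the repeats are separate cultures grown apart, the p-values below measure the spread between these samples, which may be partly technical. The counts are of all RNA of a gene, newly made or older.

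In sgAAVS1 cells Dox also induces Cas9 and cutting, so the comparison of Dox with DMSO there holds the drug, the nuclease and the cuts together, and these cannot be told apart. In the sgIGF2BP2 and sgIGF2BP3 lines the guide target was lowered as well. The lines also differed in other ways with Dox. The gene SPOP fell by 1.68 on the log2 scale in sgAAVS1 cells (edgeR adjusted p = 4.86e-28). IGF2BP3 fell by 0.25 in sgIGF2BP2 cells (edgeR adjusted p = 2.93e-06). A difference between lines thus does not isolate the loss of a target. The siRNA groups were given no Dox.

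Promoter sequence is shown for the members in which a p53-type element lay near a transcription start, because p53 is the factor the 9 genes share. RefSeq promoter windows (GRCh38.p14, 250 bases before to 50 bases after an annotated start) were matched for 8 of the 9 members: CDKN1A, MDM2, BTG2, PPM1D, CCNG1, SESN1, ZMAT3 and FDXR. The strand of each gene was searched for the p53 consensus full site. This is a pair of 10-base half-sites with at most 3 bases between them, and at most 3 mismatches in all were allowed. The consensus reads the same on the opposite strand, so that strand is covered too. Of the 8 members, 3 had a match in at least 1 window, MDM2, SESN1 and FDXR, against 5.77% of the 27305 genes with a window (4.75% of 35116 windows). Genes differ in their number of windows, which these shares do not adjust for. Sequence outside the windows was not searched. Capitals mark the 4-base core, CNNG, of each half-site, and every sequence is written 5′ to 3′ on the strand of its gene.
MDM2: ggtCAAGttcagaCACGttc
SESN1: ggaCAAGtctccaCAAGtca
FDXR: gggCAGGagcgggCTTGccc
The MDM2 match, at chr12:68808923-68808942 on the forward strand, had 2 mismatches and lay 94 bases upstream of one annotated start and 101 upstream of another, both inside the gene as GENCODE 29 draws it. The SESN1 match (chr6:109009018-109009037, reverse strand) had 3 mismatches and lay 49 bases upstream of a start. The FDXR match (chr17:74872996-74873015, reverse strand) had 3 mismatches and lay 21 bases upstream of a start. None of the 3 matches had a spacer between its half-sites. A half-site without any mismatch was found in the SESN1 and FDXR windows, 2 of 8 members, against 8.06% of genes. These matches describe letters only, and p53 binding was not measured.

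By GENCODE release 29 (GRCh38) the members are spread over the genome. MDM2 lies at chr12:68808176-68850686 and BTG2 at chr1:203305491-203309602. CDKN1A (chr6:36676460-36687339) and SESN1 (chr6:108986437-109094819) share chromosome 6. PPM1D (chr17:60600183-60666280) and FDXR (chr17:74862497-74873031) both lie on the long arm of chromosome 17. CCNG1 is at chr5:163437569-163446151, ZMAT3 is at chr3:179017223-179072279, 6.57 Mb from IGF2BP2 on the same arm, and TP53INP1 is on chromosome 8. MDM2 shares 133 exon bases with the carboxypeptidase gene CPM (no relation to the unit below) on the opposite strand, the one member that overlaps another gene of the table. The libraries were directional, but whether the counting used strand is not given in the sources used here. CCNG1 has a processed copy, CCNG1P1, on chromosome 6, whose reads could be split from or added to CCNG1.

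Total counts ranged from 10018181 to 24822807 per library, with a median of 13468792. The guide and siRNA targets were lower in every targeted group: IGF2BP2 was left at 39.5% of its control level after Dox and 27.9% after siIGF2BP2, and IGF2BP3 at 31.1% and 14.6%. Of the epithelial markers, KRT8, KRT18, EPCAM and CDX2 were present in all libraries, while CDH1 and VIL1 had at most 2 counts in any library. Leukocyte, endothelial and fibroblast markers were at or near 0, the highest being CD68 at 1.11 to 3.52 CPM (counts scaled to the library size). One library stood apart from its group, sgIGF2BP2 Dox replicate 2: its chi-square statistic per gene against the other 3 was 12.0 to 16.9, against a median of 2.30 over all 60 replicate pairs. Mitochondrially encoded genes took 5.86% of its counts and 8.38% to 9.12% in the other 3. The counts of members called are given below with and without it.

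Levels are given as CPM on library sizes scaled by the trimmed mean of M-values. Divided by exon length, the mean over all libraries was 87.4 CPM per kb for CDKN1A, 29.5 for CCNG1, 14.3 for FDXR, 9.73 for MDM2, 6.30 for BTG2, 4.89 for ZMAT3, 2.45 for PPM1D, 1.71 for SESN1 and 1.31 for TP53INP1. CDKN1A, the cyclin-dependent kinase inhibitor p21, was thus the most abundant per length of the 9. Exon length here joins all annotated exons of a gene, 13.3 kb for MDM2 and 3.10 kb for CCNG1, not those of an expressed transcript. Without division by length, the median over all libraries was 121 CPM for MDM2 and 92.0 CPM for CCNG1. Even the least abundant member, TP53INP1, had 61 or more counts in every library. The ratio of the highest to the lowest group mean was 2.56 for BTG2, 2.19 for TP53INP1 and 1.25 for CCNG1. The mean was highest in sgIGF2BP2 cells with Dox for all 9 members, as the plot of levels by library shows.

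**Figure D1:**
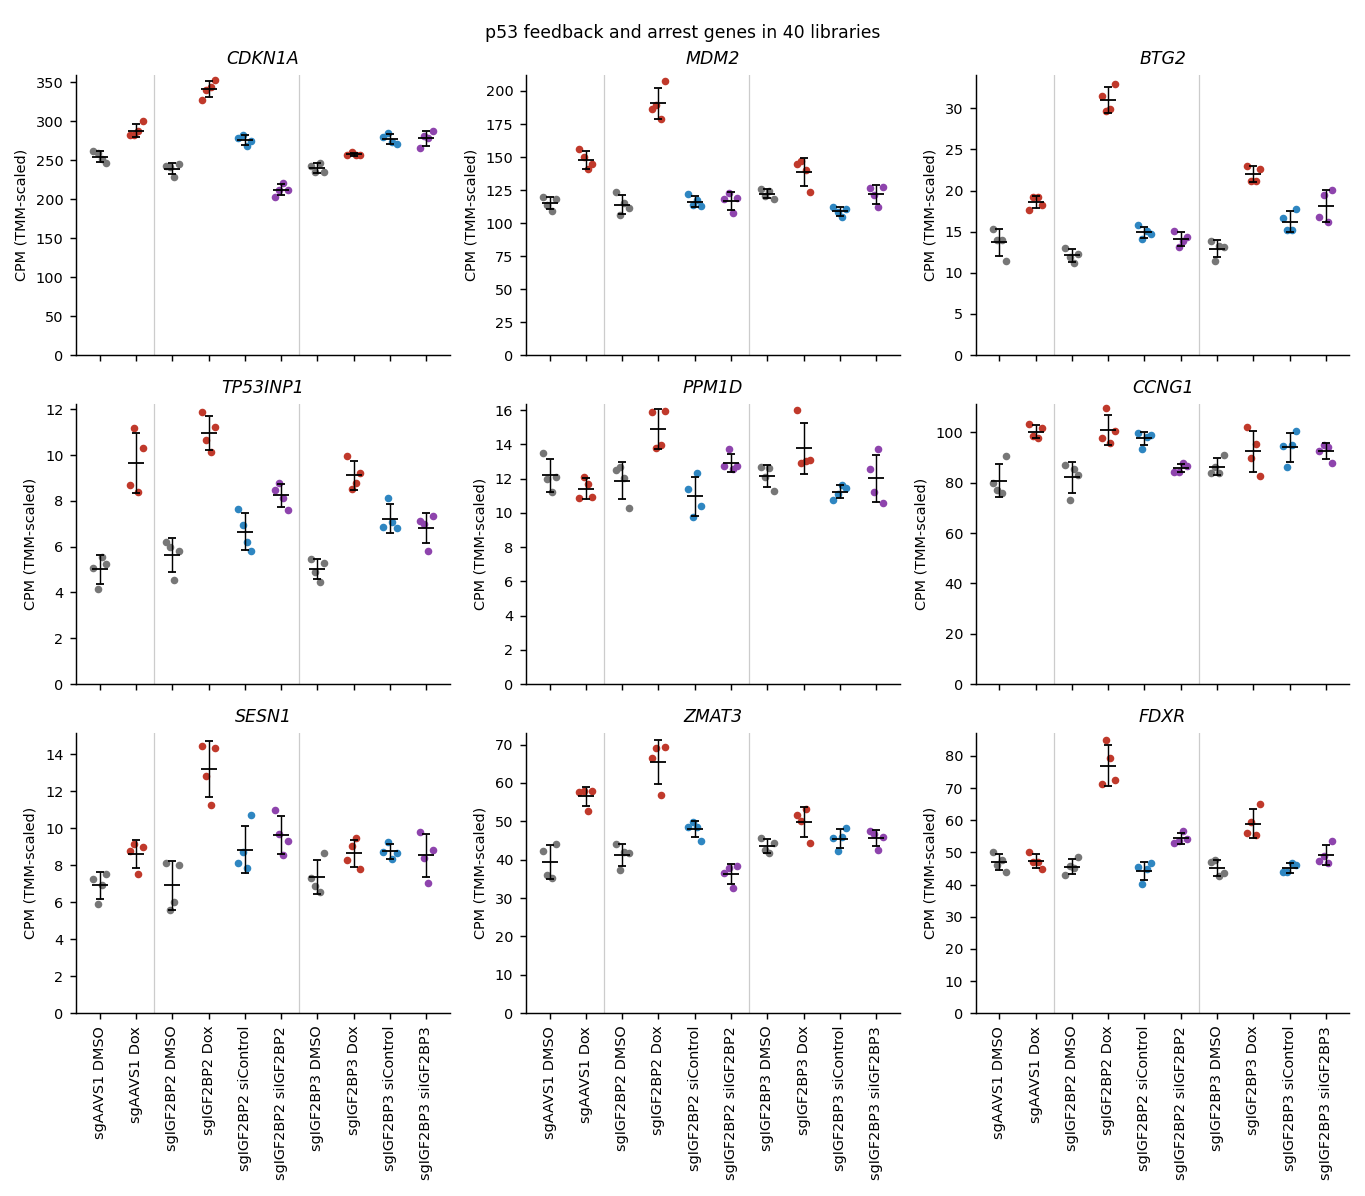
Each panel shows 1 gene, with CPM on the vertical axis from 0 and the 10 groups on the horizontal axis; points are the 4 libraries of a group, the bar is the mean and the whiskers are the SD. Grey is DMSO, red Dox, blue siControl and purple the targeting siRNA. The sgIGF2BP2 Dox libraries of MDM2, from 179 to 207 CPM, lie above every other library.

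A gene is called here when its Benjamini-Hochberg adjusted p in edgeR's quasi-likelihood test, fitted over all 11428 genes, is under 0.05. With Dox in sgIGF2BP2 cells all 9 members rose, 9 of 9 also when replicate 2 was left out, where 10% of all genes were called higher and 10.4% lower. In sgAAVS1 cells 6 of 9 rose and 0 fell, against 7.25% of all genes called higher and 8.68% lower. In sgIGF2BP3 cells 4 of 9 rose and 0 fell, against 1.64% and 1.01% (302 genes in all, and 108 without Dox replicate 4). MDM2, BTG2 and TP53INP1 rose in all 3 lines. The median log2 fold change of the 9 members was 0.74 in sgIGF2BP2 cells, 0.32 in sgAAVS1 cells and 0.19 in sgIGF2BP3 cells. The median over all tested genes was 0.01, 0.00 and 0.00 in the same order. The libraries are bulk RNA, so a change in RNA per cell and a change in the share of cells in a given state cannot be told apart.

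**Figure D2:**
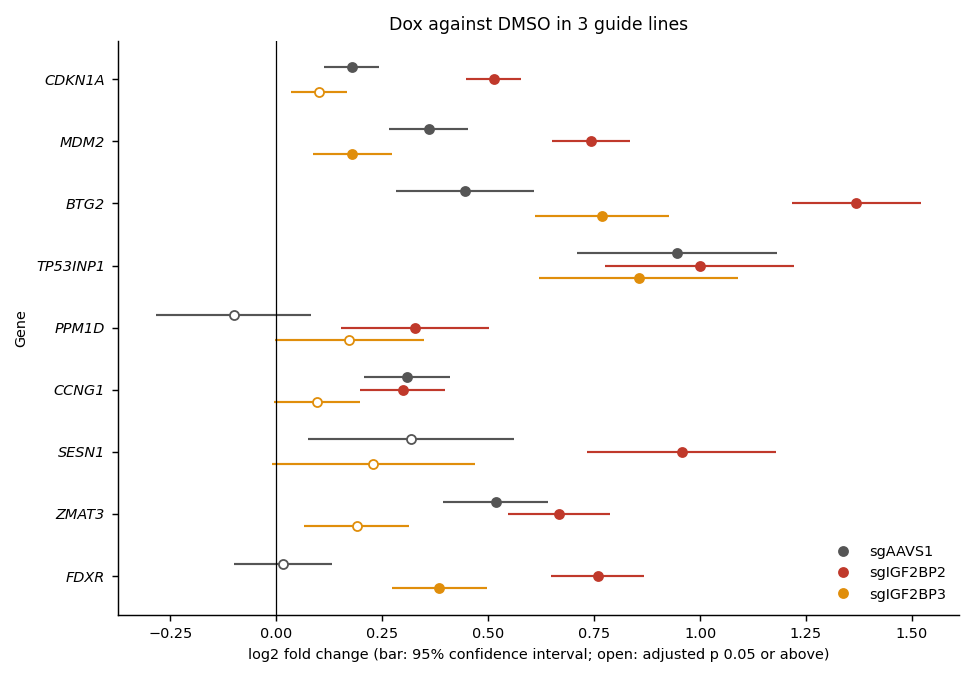
Log2 fold change of Dox against DMSO for the 9 genes (horizontal axis) in sgAAVS1 (grey), sgIGF2BP2 (red) and sgIGF2BP3 cells (orange), with 95% confidence intervals; filled points have an adjusted p under 0.05. BTG2 ranges from 0.44 to 1.37 across the 3 lines, while the 3 intervals of TP53INP1 overlap.

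MDM2, the ubiquitin ligase that degrades p53, is the central feedback gene. In sgIGF2BP2 cells it measured 123, 106, 115 and 111 CPM with DMSO and 187, 189, 179 and 207 CPM with Dox. In sgAAVS1 cells it measured 119.5, 114, 109 and 118 CPM with DMSO and 156, 149.9, 141 and 145 CPM with Dox. Every Dox library of these 2 lines lay above every DMSO library of its line, and the sgIGF2BP2 libraries reached higher. In sgIGF2BP3 cells it measured 126, 121, 124 and 118 CPM with DMSO and 145, 147, 139.8 and 123 CPM with Dox, where replicate 4 lay among the DMSO libraries. MDM2 rose by a log2 fold change of 0.74 in sgIGF2BP2 cells (SE 0.0458, edgeR adjusted p = 2.87e-21) and 0.36 in sgAAVS1 cells (SE 0.0467, edgeR adjusted p = 1.96e-08). In sgIGF2BP3 cells the rise was 0.18 (SE 0.0466, edgeR adjusted p = 0.0194). That last call was lost without DMSO replicate 2 or 4 or Dox replicate 1 or 2, with adjusted p from 0.00137 to 0.109 over 13 alternatives.

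PPM1D encodes WIP1, a phosphatase that removes activating phosphates from p53 and its kinases. With DMSO it measured 12.5, 12.7, 12.0 and 10.3 CPM in sgIGF2BP2 cells, and with Dox 15.9, 13.8, 13.9 and 15.9 CPM, all above the DMSO libraries. PPM1D rose there by 0.33 (SE 0.0869, edgeR adjusted p = 0.00372). In sgAAVS1 cells the 4 DMSO libraries (13.5, 12.0, 11.2 and 12.1 CPM) and the 4 Dox libraries (10.9, 12.1, 11.7 and 10.9 CPM) overlapped. The log2 fold change in sgAAVS1 cells was -0.10 (95% interval -0.28 to 0.08). In sgIGF2BP3 cells the Dox libraries (16.0, 12.9, 13.0 and 13.1 CPM) did not overlap the DMSO libraries (12.7, 12.1, 12.7 and 11.3 CPM), but the log2 fold change of 0.17 missed the threshold (edgeR adjusted p = 0.314). Dox replicate 1 stood alone at the top of that group.

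CCNG1, cyclin G1, recruits a phosphatase that activates MDM2. It measured 80.0, 77.1, 75.9 and 90.5 CPM with DMSO and 103, 98.5, 97.8 and 102 CPM with Dox in the sgAAVS1 line. In sgIGF2BP2 cells the values were 86.9, 73.3, 85.6 and 82.9 CPM and 97.8, 109.7, 96.0 and 100.5 CPM. Neither pair of groups overlapped, and the rises were 0.31 (edgeR adjusted p = 5.88e-06) and 0.30 (edgeR adjusted p = 6.00e-06). The interval of their difference was -0.15 to 0.13. In sgIGF2BP3 cells 84.0, 86.3, 84.0 and 91.1 CPM with DMSO stood against 102, 89.8, 95.4 and 82.9 CPM with Dox. Those groups overlapped, with Dox replicate 4 below all DMSO libraries, and the log2 fold change of 0.10 was not called.

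TP53INP1 encodes a nuclear protein that promotes phosphorylation of p53 and takes part in autophagy. It had 5.08, 4.13, 5.57 and 5.24 CPM with DMSO and 8.70, 11.2, 8.40 and 10.3 CPM with Dox in the sgAAVS1 line. In sgIGF2BP2 cells it had 6.21, 6.005, 4.56 and 5.80 CPM and 11.9, 10.7, 10.1 and 11.2 CPM. In sgIGF2BP3 cells it had 5.45, 4.89, 4.45 and 5.30 CPM and 9.94, 8.51, 8.78 and 9.24 CPM. In each line all Dox libraries lay above all DMSO libraries. The rises were 0.95, 1.00 and 0.85 on the log2 scale in the order given, with edgeR adjusted p of 6.29e-09, 1.10e-10 and 6.55e-07. No difference between lines was called for it, the interval of sgIGF2BP2 minus sgAAVS1 being -0.28 to 0.38.

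CDKN1A encodes p21, which blocks cyclin-dependent kinases and is the main route by which p53 arrests cells. It measured 262, 259, 252 and 247 CPM with DMSO and 282, 282, 287 and 301 CPM with Dox in the sgAAVS1 line. In sgIGF2BP2 cells it measured 242, 241, 229 and 245 CPM and 328, 340.1, 344 and 353 CPM. In sgIGF2BP3 cells it measured 243, 235, 247 and 236 CPM and 256, 261, 256 and 257 CPM. No pair of groups overlapped, but the distance was small in sgIGF2BP3 cells and large in sgIGF2BP2 cells. CDKN1A rose by 0.51 in sgIGF2BP2 cells (SE 0.0326, edgeR adjusted p = 1.03e-20) and by 0.18 in sgAAVS1 cells (SE 0.0328, edgeR adjusted p = 4.45e-05). In sgIGF2BP3 cells the log2 fold change was 0.10 (SE 0.0330, edgeR adjusted p = 0.0793). It was called there when only the libraries of that comparison were fitted (edgeR adjusted p = 0.0469).

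BTG2, an antiproliferative protein that binds the CCR4-NOT deadenylase, had the greatest fold change of the 9 in sgIGF2BP2 cells. It went from 13.1, 11.9, 11.2 and 12.3 CPM with DMSO to 31.5, 29.7, 29.9 and 33.0 CPM with Dox there. In sgIGF2BP3 cells it went from 13.8, 11.5, 13.3 and 13.2 CPM to 23.0, 21.2, 21.2 and 22.6 CPM. In sgAAVS1 cells it went from 15.4, 14.0, 14.0 and 11.5 CPM to 17.7, 19.3, 19.2 and 18.3 CPM. The Dox libraries of the 3 lines formed separate ranges, with sgIGF2BP2 highest and sgAAVS1 lowest, and all lay above the DMSO libraries. The rises were 1.37 (SE 0.0764, edgeR adjusted p = 2.50e-23), 0.77 (SE 0.0795, edgeR adjusted p = 5.38e-11) and 0.44 (SE 0.0816, edgeR adjusted p = 4.14e-05).

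SESN1, sestrin 1, restrains the growth kinase mTORC1 under stress. With DMSO in sgIGF2BP2 cells it measured 8.11, 5.58, 5.99 and 8.02 CPM, and with Dox 14.4, 12.8, 11.2 and 14.3 CPM. All Dox libraries there were higher, although the DMSO libraries split into a higher and a lower pair. SESN1 rose by 0.96 (SE 0.112, edgeR adjusted p = 4.60e-10). In sgAAVS1 cells the values were 7.28, 5.89, 6.94 and 7.54 CPM with DMSO and 8.77, 9.13, 7.51 and 9.02 CPM with Dox. Dox replicate 3 lay just below the highest DMSO library, and the log2 fold change of 0.32 missed the threshold (edgeR adjusted p = 0.0631). It was called without DMSO replicate 4, without Dox replicate 3 or with a replicate term, the lowest adjusted p being 0.0424. In sgIGF2BP3 cells the log2 fold change was 0.23 (95% interval -0.01 to 0.47).

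ZMAT3 encodes a zinc finger protein that binds RNA and affects splicing and mRNA stability. It measured 42.3, 36.1, 35.2 and 44.2 CPM with DMSO and 57.8, 57.8, 52.8 and 57.8 CPM with Dox in the sgAAVS1 line. In sgIGF2BP2 cells it measured 44.2, 37.3, 42.0 and 41.8 CPM and 66.4, 69.0, 57.0 and 69.2 CPM. In both lines the groups were apart, and in both the third Dox replicate was the lowest of its group. ZMAT3 rose by 0.52 (edgeR adjusted p = 1.96e-09) and 0.67 (edgeR adjusted p = 6.06e-14). In sgIGF2BP3 cells 45.5, 42.5, 41.6 and 44.4 CPM with DMSO stood against 51.5, 50.0, 53.3 and 44.4 CPM with Dox, where replicate 4 overlapped the DMSO libraries. The log2 fold change of 0.19 had an edgeR adjusted p of 0.0836, and it was called without that Dox replicate 4, without the low-count filter or when only these 8 libraries were fitted. ZMAT3 lies on the centromere side of IGF2BP2, while the 48 tested genes on the telomere side had a median log2 fold change of -0.08 with Dox in sgIGF2BP2 cells.

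FDXR encodes ferredoxin reductase, a mitochondrial enzyme that passes electrons for steroid and iron-sulphur cluster synthesis. It measured 50.0, 46.2, 47.6 and 44.0 CPM with DMSO and 50.3, 47.2, 47.0 and 44.8 CPM with Dox in sgAAVS1 cells, ranges that lay on top of each other. In sgIGF2BP2 cells it measured 43.0, 45.7, 45.1 and 48.7 CPM and 71.1, 85.0, 79.3 and 72.6 CPM. In sgIGF2BP3 cells it measured 46.9, 47.7, 42.8 and 43.5 CPM and 56.1, 59.5, 55.3 and 65.2 CPM. The Dox libraries of the 2 IGF2BP lines were all above DMSO, by the widest margin in sgIGF2BP2 cells. FDXR rose by 0.76 (SE 0.0545, edgeR adjusted p = 3.17e-18) and 0.38 (SE 0.0562, edgeR adjusted p = 2.75e-06). Its log2 fold change in sgAAVS1 cells was 0.02 (95% interval -0.10 to 0.13). Without replicate 2 of sgIGF2BP2 Dox, the highest library, FDXR was still called, and over all left-out libraries its rise in that line stayed between 0.70 and 0.79.

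PPM1D and FDXR share a further feature in sgAAVS1 cells. They lie 10.9 and 25.2 Mb beyond SPOP on chromosome 17, and SPOP fell in that line by 1.68 on the log2 scale (edgeR adjusted p = 4.86e-28). Distal to SPOP, up to the telomere, 250 genes were tested. With Dox in sgAAVS1 cells 130 of these were called lower and 1 higher, and their median was -0.17 on the log2 scale. The same genes had medians of 0.02 in sgIGF2BP2 and 0.01 in sgIGF2BP3 cells. With the median of these 250 genes subtracted, the log2 fold change in sgAAVS1 cells was 0.07 for PPM1D and 0.19 for FDXR. These values carry no test. The other 7 members lie outside this stretch. Whether the shift distal to SPOP has a part in the values of PPM1D and FDXR was not tested.

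**Figure D3:**
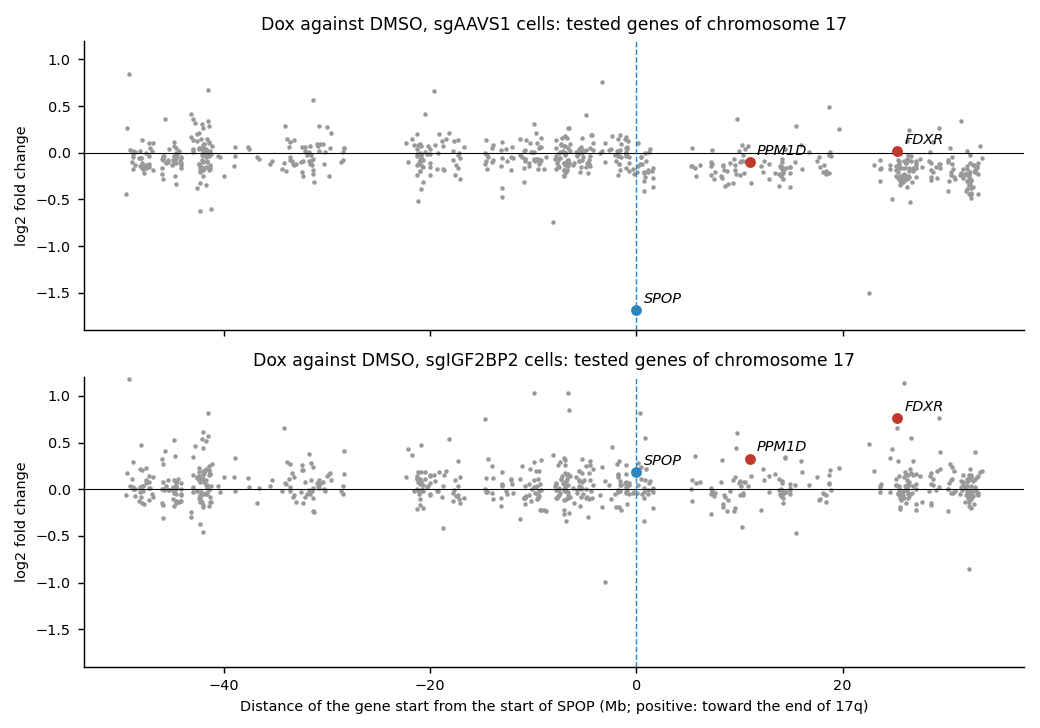
Tested genes of chromosome 17 by distance of their start from that of SPOP (horizontal axis, Mb) against their log2 fold change with Dox in sgAAVS1 (top) and sgIGF2BP2 cells (bottom); PPM1D and FDXR are red, SPOP is blue. To the right of SPOP the grey points sit around -0.17 in sgAAVS1 cells and around 0.02 in sgIGF2BP2 cells. Points above the top of the axis are not shown, among them the 1 distal gene called higher in sgAAVS1 cells, at 1.25.

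The difference between lines was tested directly as an interaction. It holds all that differed between the lines with Dox, the fall of SPOP in sgAAVS1 cells included, and these cannot be told apart. The Dox effect was larger in sgIGF2BP2 than in sgAAVS1 cells for 6 of 9 members, where 6.97% of all genes differed in either direction. These were BTG2 (0.92 on the log2 scale), FDXR (0.74), SESN1 (0.64), PPM1D (0.43), MDM2 (0.38) and CDKN1A (0.34). Their edgeR adjusted p ran from 1.37e-10 for FDXR to 0.0260 for PPM1D. The call of SESN1 was lost without sgIGF2BP2 DMSO replicate 3 (edgeR adjusted p = 0.0506). The call of PPM1D was lost under 6 of 21 alternatives: without replicate 1 of sgAAVS1 DMSO, 1 or 4 of sgAAVS1 Dox, 4 of sgIGF2BP2 DMSO, or 1 or 4 of sgIGF2BP2 Dox. With the median of this difference over distal 17q (0.20) subtracted, PPM1D was at 0.23 and FDXR at 0.54. ZMAT3 (0.15, 95% interval -0.02 to 0.32) was not called.

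The Dox effect in sgIGF2BP3 cells was smaller than in sgIGF2BP2 cells for 6 of 9 members, where 2.91% of all genes differed. The differences were -0.73 for SESN1, -0.60 for BTG2, -0.56 for MDM2, -0.48 for ZMAT3, -0.41 for CDKN1A and -0.37 for FDXR. The edgeR adjusted p ranged from 2.61e-09 for CDKN1A to 0.00475 for SESN1, and all 6 calls held under the 21 alternatives. Against sgAAVS1 cells, 2 of 9 members differed in sgIGF2BP3 cells, where 7.78% of all genes did. FDXR rose more by 0.37 (edgeR adjusted p = 0.00192; 0.16 after subtraction of the distal 17q median). ZMAT3 rose less, by -0.33 (edgeR adjusted p = 0.0121), a call lost without sgAAVS1 DMSO replicate 2 or sgIGF2BP3 Dox replicate 4. The count of 2 became 1 without sgAAVS1 DMSO replicate 2 or sgIGF2BP3 Dox replicate 4, and 4 without sgAAVS1 DMSO replicate 4. The count over all genes, 889, was 540, 428 and 1415 without these libraries in the same order. The 3 differences share libraries, so they are not independent of each other.

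The siControl groups show how the members stood in transfected cells without Dox. In sgIGF2BP2 cells 5 of 9 members were higher with siControl than with DMSO and 0 lower, against 10.2% and 8.16% of all genes. In sgIGF2BP3 cells 3 were higher and 1 lower, against 10.9% and 8.54%. These comparisons use the DMSO libraries that also serve the Dox comparisons, and the groups differ in transfection, time and solvent, which cannot be told apart. CDKN1A had 278, 283, 269 and 274 CPM with siControl in sgIGF2BP2 cells and 280.4, 286, 274 and 271 CPM in sgIGF2BP3 cells. All 8 libraries lay above the DMSO libraries of their lines, by 0.21 (edgeR adjusted p = 1.25e-06) and 0.21 (edgeR adjusted p = 8.86e-07) on the log2 scale. BTG2 had 15.8, 14.1, 15.0 and 14.7 CPM and 16.7, 15.2, 15.2 and 17.8 CPM in the same groups. It too was above DMSO in both lines, by 0.32 (edgeR adjusted p = 0.00371) and 0.32 (edgeR adjusted p = 0.00287).

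Of the other members with siControl in sgIGF2BP2 cells, CCNG1 rose by 0.24 (edgeR adjusted p = 1.94e-04). SESN1 rose by 0.36 (edgeR adjusted p = 0.0205), a call lost without DMSO replicate 2 or 3 or siControl replicate 4. ZMAT3 rose by 0.21 (edgeR adjusted p = 0.00863), a call lost without DMSO replicate 2 (edgeR adjusted p = 0.0506). The count of 5 was 3 without that DMSO replicate. In sgIGF2BP3 cells TP53INP1 rose by 0.53 (edgeR adjusted p = 7.67e-04), from 5.45, 4.89, 4.45 and 5.30 to 6.84, 8.13, 7.09 and 6.82 CPM. MDM2 went the other way there, with 112, 108, 105 and 111 CPM, below every DMSO library. It fell by 0.17 on the log2 scale (edgeR adjusted p = 0.00727). In sgIGF2BP2 cells the siControl libraries of MDM2, at 122, 114, 117 and 113 CPM, overlapped DMSO. Between the 2 lines 0 of 9 members differed in this siControl effect by edgeR's quasi-likelihood test and 0 by DESeq2, where 0.00875% of all genes differed. At an unadjusted p under 0.05, 1 of 9 members and 590 of the 11428 genes did, the member being MDM2 with a difference of -0.20.

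With siIGF2BP2 against siControl, 3 of 9 members fell and 3 rose, where 18.4% of all genes fell and 18.4% rose. CDKN1A had 204, 212, 222 and 212 CPM, below all siControl and all DMSO libraries of the line, and fell by 0.38 on the log2 scale (SE 0.0330, edgeR adjusted p = 2.51e-15). ZMAT3 had 36.5, 37.7, 32.6 and 38.3 CPM against 48.6, 49.8, 48.4 and 44.9 CPM with siControl and fell by 0.40 (SE 0.0634, edgeR adjusted p = 4.12e-07). CCNG1 had 84.4, 84.5, 87.7 and 86.7 CPM against 99.8, 93.6, 98.2 and 98.9 CPM and fell by 0.19 (SE 0.0504, edgeR adjusted p = 0.00236). The libraries of the 2 groups were apart for all 3 genes. These 3 genes, like all 9 members, rose with Dox in this line, where IGF2BP2 was lowered by the guides. With siControl they were above DMSO in this line, by 0.21 for CDKN1A, 0.24 for CCNG1 and 0.21 for ZMAT3. The siIGF2BP2 libraries of CCNG1 and ZMAT3 overlapped the DMSO libraries of the line.

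FDXR rose with siIGF2BP2, from 45.5, 40.2, 44.7 and 46.8 CPM to 52.9, 53.7, 56.7 and 54.1 CPM, without overlap, by 0.30 on the log2 scale (SE 0.0564, edgeR adjusted p = 1.95e-05). PPM1D had 11.4, 9.77, 12.4 and 10.4 CPM with siControl and 12.7, 13.7, 12.6 and 12.7 CPM with siIGF2BP2, a rise of 0.23 (edgeR adjusted p = 0.0333). TP53INP1 had 7.65, 6.95, 6.21 and 5.80 CPM and 8.49, 8.78, 8.11 and 7.61 CPM, a rise of 0.29 (edgeR adjusted p = 0.0364). The call of PPM1D was lost under 7 of 13 alternatives, DESeq2 and the loss of siControl replicate 2 or 4 or siIGF2BP2 replicate 2 or 4 among them, with adjusted p from 0.0150 to 0.139. The call of TP53INP1 was lost under 8 of 13, DESeq2 and the loss of siControl replicate 3 or 4 or siIGF2BP2 replicate 1, 2 or 3 among them, with adjusted p from 0.0149 to 0.125. MDM2, at 118, 123, 107 and 119 CPM, had a log2 fold change of 0.01 (95% interval -0.09 to 0.10). BTG2 had -0.09 (-0.25 to 0.08) and SESN1 0.13 (-0.10 to 0.35).

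With siIGF2BP3 against siControl, 1 of 9 members was called higher and 0 lower, where 0.936% and 1.4% of all genes were. MDM2 had 127, 121, 112 and 127 CPM against 112, 108, 105 and 111 CPM, overlapping only through siIGF2BP3 replicate 3. The log2 fold change was 0.16 (SE 0.0478, edgeR adjusted p = 0.0483). The call was lost by DESeq2 and without any 1 of the 4 siControl libraries or siIGF2BP3 replicates 1, 2 or 4, with adjusted p from 0.00391 to 0.172 over 13 alternatives. CDKN1A, at 266, 281, 278 and 288 CPM, had a log2 fold change of 0.00 (95% interval -0.06 to 0.07). The other members not called ranged from -0.09 for TP53INP1 to 0.17 for BTG2. The effects of the 2 siRNA pools differed for 2 of 9 members, where 18.7% of all genes differed. These were CDKN1A (0.38, edgeR adjusted p = 1.37e-09) and ZMAT3 (0.41, edgeR adjusted p = 3.59e-04), both with siIGF2BP3 minus siIGF2BP2. Each pool was given in its own line only, so pool and line cannot be told apart here.

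**Figure D4:**
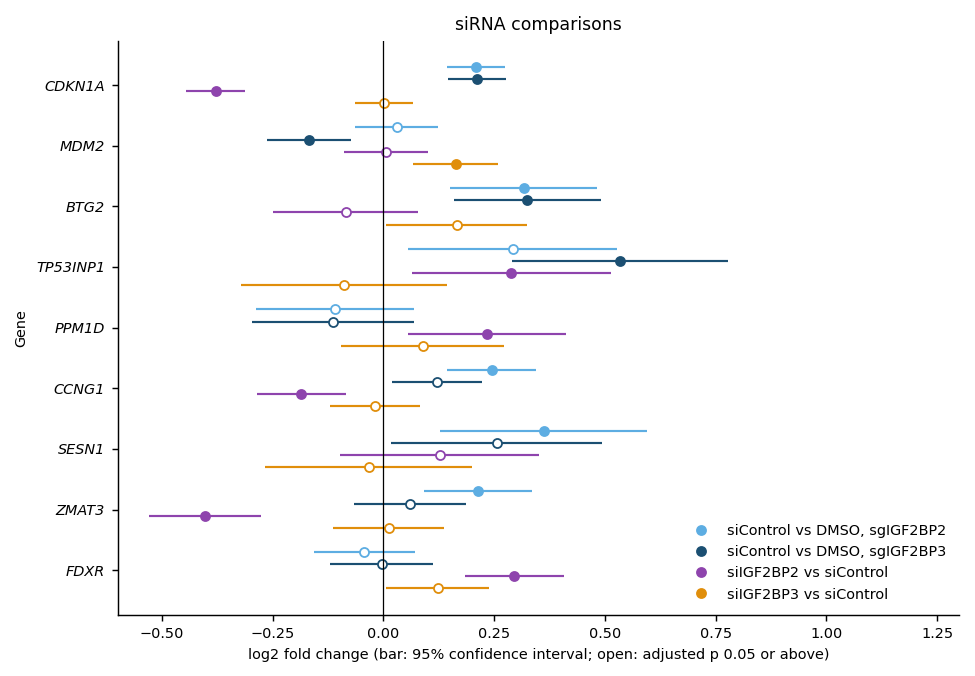
Log2 fold change of the 9 genes (horizontal axis) for siControl against DMSO in sgIGF2BP2 (light blue) and sgIGF2BP3 cells (dark blue), for siIGF2BP2 against siControl (purple) and for siIGF2BP3 against siControl (orange), with 95% confidence intervals; filled points have an adjusted p under 0.05. CDKN1A lies at 0.21 in both siControl comparisons and at -0.38 with siIGF2BP2.

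Ordered over the 10 groups by mean level, the members fell into several patterns. BTG2 had its 3 Dox groups at the top, 31.0 ± 1.56 CPM (mean ± SD, n = 4), 22.0 ± 0.956 and 18.6 ± 0.775. The first 2 were apart from the next group, and from sgAAVS1 Dox down to the lowest, sgIGF2BP2 DMSO at 12.1 ± 0.797, each group overlapped its neighbour. MDM2 and ZMAT3 also had their 3 Dox groups at the top. For MDM2, sgIGF2BP2 Dox (191 ± 12.0 CPM) stood alone and all later neighbours overlapped down to sgIGF2BP3 siControl (109 ± 3.25). For ZMAT3 every neighbour overlapped, from 65.4 ± 5.76 CPM in sgIGF2BP2 Dox to 36.3 ± 2.59 in sgIGF2BP2 siIGF2BP2. TP53INP1 had its 3 Dox groups first as well, from 10.97 ± 0.738 CPM in sgIGF2BP2 Dox to 5.00 ± 0.617 in sgAAVS1 DMSO, with each neighbour overlapping.

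CDKN1A differed from these, because all 3 siRNA groups other than siIGF2BP2 stood between the Dox groups. Its order was sgIGF2BP2 Dox (341 ± 10.4 CPM), apart from the rest, then sgAAVS1 Dox, sgIGF2BP3 siIGF2BP3, sgIGF2BP3 siControl and sgIGF2BP2 siControl, which overlapped in turn. A gap separated these from sgIGF2BP3 Dox (258 ± 2.24 CPM) and the 3 DMSO groups, and another gap set sgIGF2BP2 siIGF2BP2 (212 ± 7.35 CPM) at the bottom. FDXR had sgIGF2BP2 Dox (77.0 ± 6.40 CPM) apart at the top, then sgIGF2BP3 Dox, siIGF2BP2 and siIGF2BP3, and the remaining 6 groups from 47.3 ± 2.25 down to 44.3 ± 2.87 CPM, each overlapping its neighbour. SESN1 had sgIGF2BP2 Dox (13.2 ± 1.51 CPM) apart and the other 9 groups between 9.64 ± 1.02 and 6.91 ± 0.723 CPM without a gap. CCNG1 (101 ± 6.06 CPM at the top, 80.9 ± 6.65 at the bottom) and PPM1D (14.9 ± 1.17 CPM at the top, 10.97 ± 1.13 at the bottom) had no gap between any neighbours.

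The members were not equally alike across the 10 groups. Pearson's r of a member's group means of log2 CPM with the mean z-score of the other 8 was 0.97 for BTG2, 0.91 for MDM2, 0.86 for SESN1, 0.85 for ZMAT3, 0.83 for TP53INP1, 0.82 for FDXR, 0.72 for CDKN1A, 0.71 for CCNG1 and 0.58 for PPM1D. These are descriptions over 10 group means that come from the same libraries. Of 9949 other genes whose mean log2 CPM reached 2, the 6 with the highest r to the mean profile of the 9 were AOX1 (0.97), FADS3 (0.97), BBC3 (0.96), DDIT4 (0.96), NOCT (0.95) and TCAIM (0.95). The 6 were chosen on all 10 groups, so their values in no group, the other Dox groups included, are separate from that choice. The members' profile peaks in sgIGF2BP2 Dox, so high values of the 6 in that group follow from their choice. Their log2 fold changes with Dox there ran from 0.33 for NOCT to 1.22 for BBC3, which encodes the pro-apoptotic protein PUMA. In sgAAVS1 cells they were 0.60 for DDIT4, 0.51 for BBC3, 0.34 for AOX1, 0.20 for NOCT, 0.13 for FADS3 and 0.09 for TCAIM. AOX1, FADS3 and TCAIM were not called there. In sgIGF2BP3 cells they were 0.61 for BBC3 and from 0.11 for NOCT to 0.16 for DDIT4 for the others, of which none was called.

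Other p53 targets were listed for comparison, 34 genes of DNA repair, apoptosis and signalling, of which 30 were tested. With Dox 14 of 30 rose in sgAAVS1 cells, 25 in sgIGF2BP2 cells (26 without Dox replicate 2) and 10 in sgIGF2BP3 cells, and 0 fell in any of the 3. Over all genes 7.25%, 10% and 1.64% were called higher. The median log2 fold changes of the 30 were 0.15, 0.42 and 0.16. GDF15, a secreted stress cytokine, rose by 1.25, 1.31 and 0.68 in that order. BBC3 rose by 0.51, 1.22 and 0.61. FAS, a death receptor, rose by 0.61, 0.86 and 0.31, and the kinase gene PLK3 by 0.43 in sgIGF2BP3 cells. With siIGF2BP2, 7 rose and 8 fell, where 18.4% of all genes rose and 18.4% fell, among them DDB2, a DNA damage sensor (0.35), FAS (-0.45) and GDF15 (-0.42). With siIGF2BP3, 1 rose, RPS27L (0.23), and 2 fell, PERP (-0.24) and RRM2B (-0.19), against 0.936% and 1.4% of all genes. With siControl against DMSO, 6 rose and 3 fell in sgIGF2BP2 cells, and 6 rose and 1 fell in sgIGF2BP3 cells. The shares of all genes were 10.2% and 8.16%, and 10.9% and 8.54%. GDF15 was at 0.93 and 1.08 and SERTAD1 at -0.35 and -0.32. In sgIGF2BP2 cells PMAIP1 was at -0.37 with siControl, and in sgIGF2BP3 cells FAS was at 0.24.

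**Figure D5:**
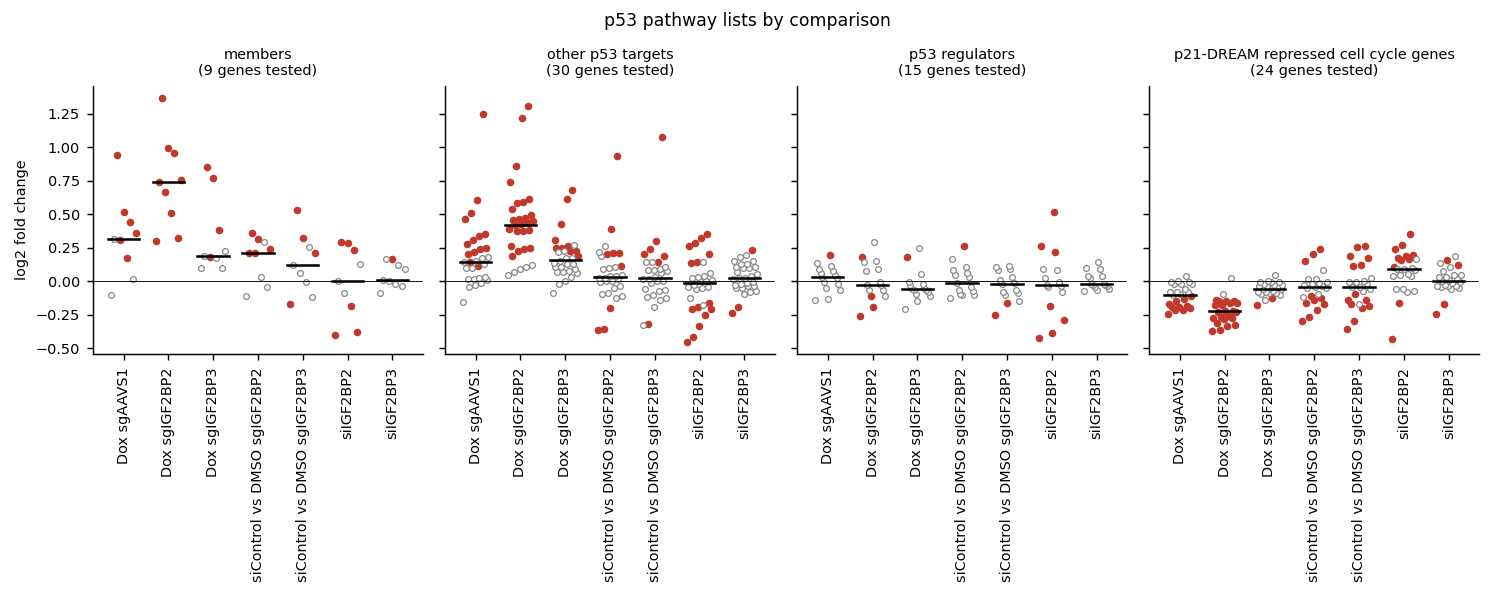
Log2 fold change (vertical axis) of the 9 members, 30 other p53 targets, 15 p53 regulators and 24 cell cycle genes in 7 comparisons; red points have an adjusted p under 0.05, open points do not, and the bar is the median of a list. In sgIGF2BP2 cells with Dox the medians are 0.74, 0.42, -0.03 and -0.22 from left to right.

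Genes that act on p53 itself were listed as well. Of 15 regulators, 1 was called higher with Dox in sgAAVS1 cells (7.25% of all genes), 1 higher and 3 lower in sgIGF2BP2 cells (10% and 10.4%), and 1 higher in sgIGF2BP3 cells (1.64%), with medians of 0.03, -0.03 and -0.06. MDM4, the partner of MDM2 in restraining p53, had log2 fold changes of 0.05, -0.06 and -0.06 with Dox in sgAAVS1, sgIGF2BP2 and sgIGF2BP3 cells, none called. The checkpoint kinase genes CHEK1 and CHEK2 fell by 0.26 and 0.19 in sgIGF2BP2 cells with Dox. With siIGF2BP2, 3 regulators rose and 4 fell, where 18.4% of all genes rose and 18.4% fell, among them PPP1R13L (0.52), USP28 (-0.42) and HIPK2 (-0.38). With siIGF2BP3 0 of 15 passed edgeR's test, and 1 of 15 had an unadjusted p under 0.05, as did 13.8% of all genes. With siControl against DMSO USP28 rose by 0.26 in sgIGF2BP2 cells, and CHEK2 (-0.25) and MDM4 (-0.16) fell in sgIGF2BP3 cells.

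Cell cycle genes that the p21 and DREAM complex pathway is known to repress were listed too. Whether their changes follow from CDKN1A was not tested. With Dox, 11 of 24 fell in the sgAAVS1 line, 22 in sgIGF2BP2 cells (22 without Dox replicate 2) and 2 in sgIGF2BP3 cells, and 0 rose in any. Over all genes 8.68%, 10.4% and 1.01% were called lower. The medians of the 24 were -0.10, -0.22 and -0.06. In sgIGF2BP2 cells the proliferation marker MKI67 fell by 0.37, the transcription factor FOXM1 by 0.36 and cyclin A2 (CCNA2) by 0.33. In sgAAVS1 cells the helicase genes MCM5 and MCM2 fell by 0.24 and 0.21 and MYBL2 by 0.22. One of the 24, BIRC5, lies on distal 17q and was among the 11, a gene singled out after its values were seen. In sgIGF2BP3 cells the 2 that fell were CCNA2 (-0.18) and RRM2 (-0.13), and the count was 1 without DMSO replicate 2, Dox replicate 2 or Dox replicate 4. With siIGF2BP2, 9 rose and 2 fell (18.4% of all genes each way), E2F1 (0.36) and RRM2 (0.27) rising and CDC25A (-0.43) falling. With siIGF2BP3, 2 rose and 2 fell (0.936% and 1.4% of all genes), E2F1 at 0.16, MCM5 at -0.24 and MCM3 at -0.17. With siControl, 3 rose and 8 fell in sgIGF2BP2 cells (10.2% and 8.16% of all genes) and 6 rose and 8 fell in sgIGF2BP3 cells (10.9% and 8.54%), with RRM2 at -0.29 and -0.30, CCNE2 at -0.27 and -0.36, and CDC25A at 0.24 and 0.26.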

How the data were processed

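Poly(A) RNA of 40 libraries was sequenced after directional library preparation, per the labels' protocols. The authors deposited a table of raw read counts per gene. Demultiplexing with bcl2fastq 2.20.0.422, alignment with STAR 2.7.5c and the build hg38 are named in the submitters' processing notes. The counting tool, its annotation and its strand setting are not given in the sources used here. Gene symbols come from GENCODE 29, which named 19847 of the 19962 identifiers.

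From the deposited counts, 11428 genes passed the low-count filter filterByExpr, and these held 99.98% of all counts. One edgeR 4.0.16 quasi-likelihood model (R 4.3.3, limma 3.58.1) with 10 groups and no block was fitted to all 40 libraries, with trimmed mean of M-values factors of 0.978 to 1.03. From it came 7 comparisons of 2 groups and 5 differences between them. The p-values were adjusted over all tested genes by Benjamini-Hochberg, with a threshold of 0.05. Fold changes are log2 values. Each SE was derived as the absolute log2 fold change over the square root of the test's F statistic. The 95% intervals were built from that SE with a t quantile. The biological coefficient of variation was 3.79%. The test was checked on simulated data. Alternatives were edgeR's relative log expression factors as normalization, DESeq2 1.42.0 as test, and no low-count filter. Others were a replicate block, the libraries of a comparison alone, and leaving out each library. Replicates of every group differed by more than sampling noise, so none was merged.

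The 9 members and the 3 context lists were chosen with earlier results of these data known. Named genes are the members, MDM4, the targets and SPOP. The values of 1 gene of the regulator list are not reported here. From each list, up to 3 called genes per comparison with the largest changes are named, if their groups were apart and their mean log2 CPM reached 2, together with the 6 genes whose group means are most like the members' profile. Values named outside this rule are BIRC5 and FAS in sgIGF2BP3 cells with Dox, chosen after their values were seen. The fraction of labelled RNA was not analysed here.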

Additional observations from a re-analysis of the deposited data

Results flagged for a closer look

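In 4 of 90 groups of 4 libraries, 1 per member and group, the highest or lowest library stood apart from the other 3 by a gap wider than Dixon's 95% criterion allows. Chance gives about 1 in 20, or 4.5 of 90. The libraries were replicate 2 of sgIGF2BP3 Dox for CDKN1A (261 CPM), replicate 2 of sgIGF2BP2 siIGF2BP2 for PPM1D (13.7 CPM), replicate 1 of sgIGF2BP3 Dox for PPM1D (16.0 CPM) and replicate 3 of sgAAVS1 Dox for ZMAT3 (52.8 CPM).

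Tests of a difference between lines or siRNA pools, 9 members in 5 differences, passed the threshold 16 times by edgeR's quasi-likelihood test. Over all genes 6.97%, 7.78%, 2.91% and 18.7% differed, in the order of the 4 differences below. In the siControl difference 0 of 9 members passed, where 0.00875% of all genes did. For the Dox effect in sgIGF2BP2 minus that in sgAAVS1 cells the differences on the log2 scale were 0.34 for CDKN1A, 0.38 for MDM2, 0.92 for BTG2, 0.43 for PPM1D, 0.64 for SESN1 and 0.74 for FDXR. For sgIGF2BP3 minus sgAAVS1 they were -0.33 for ZMAT3 and 0.37 for FDXR. For sgIGF2BP3 minus sgIGF2BP2 they were -0.41 for CDKN1A, -0.56 for MDM2, -0.60 for BTG2, -0.73 for SESN1, -0.48 for ZMAT3 and -0.37 for FDXR. For siIGF2BP3 minus siIGF2BP2 they were 0.38 for CDKN1A and 0.41 for ZMAT3. The sgAAVS1, sgIGF2BP2 and sgIGF2BP3 libraries each serve more than 1 of these differences, so the 16 are not independent.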

How the results depend on the processing

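Of 108 member results (9 members in 12 comparisons), all 108 kept their side of the threshold with edgeR's relative log expression factors. So did 105 with DESeq2's test, 102 without the low-count filter and 100 with only the libraries of a comparison. No called value changed sign under any alternative. Correlations of same-numbered deviations ran from -0.0896 to 0.0924 over the 7 comparisons. In the Dox and targeting siRNA comparisons replicate numbers did not pair the libraries, and at most 1 of 4 matched its own number best. For siControl against DMSO, 4 of 4 did in sgIGF2BP2 cells and 2 of 4 in sgIGF2BP3 cells. In sgIGF2BP2 cells those correlations were 0.0437 to 0.0924, against at most 0.0184 for other numbers. With a replicate block, 106 member results kept their side and 2 passed the threshold, SESN1 for Dox in sgAAVS1 cells at 0.32 and CCNG1 for Dox in sgIGF2BP3 minus sgAAVS1 cells at -0.21. Over 1224 values with 1 library left out, 1177 kept their side, 33 lost a call and 14 gained one. DESeq2 called 0 members with siIGF2BP3, against 1. With only the libraries of a comparison, 477 genes were called for Dox in sgIGF2BP3 cells (302 otherwise) and 465 for siIGF2BP3 (267 otherwise). The members called for Dox in sgIGF2BP3 minus sgAAVS1 cells were 4 instead of 2 both there and without the low-count filter. The siControl difference between lines held 3 genes without that filter, against 1.

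With 1 library left out, the members called were 1 to 4 for Dox in sgIGF2BP3 minus sgAAVS1 cells, 3 to 5 for siControl in sgIGF2BP2 cells and 0 to 1 for siIGF2BP3. All genes called were 108 to 285 for Dox in sgIGF2BP3 cells, 428 to 1415 for Dox in sgIGF2BP3 minus sgAAVS1 cells and 0 to 1 for the siControl difference. Cell cycle genes called for Dox in sgIGF2BP3 cells were 1 to 2. The cause of these shifts was not tested, other than that fewer libraries enter each fit. Leaving out libraries for the context lists, and the subtraction of the distal 17q median from differences between lines, were chosen after seeing the data. Depth limits TP53INP1 and SESN1 most, with at least 61 and 65 counts per library.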
